A study of Mus musculus with 8 samples.

Results

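Where a transcript is cut and polyadenylated decides which exons it carries. The ends of transcripts in wild-type mouse brain were described here for genes in which reads end either in an exon upstream or in the 3′-most exon, and the members are the genes with a mean of 20 or more reads over both ends in the wild-type libraries. Of 6147 genes listed, 5972 met this rule. The series holds 8 libraries of 3′ ends from total brain on postnatal day 50: 3 from wild-type mice and 5 from littermates of the Cstf2D50A genotype, on a C57BL/6NCrl background. Only the 3 wild-type libraries were used, and no genotypes were compared. The mice were untreated. The labels name no batch, sex or pooling, and they do not say which mice were littermates of each other. The p-values thus rest on the spread between these 3 samples, with estimates for each gene that borrow from other genes.

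Most genes carry their last poly(A) site in the final exon, and a site used in that exon leaves the whole coding sequence in the mRNA. A site further upstream, in an intron or in an alternative last exon, replaces the end of the coding sequence, so that the protein has another C-terminus or lacks domains. In brain such ends are known from receptors that lose their kinase domain, from scaffold proteins that lose the part through which they multimerise, and from the cleavage factors themselves. The upstream-exon share used below is the percentage of a gene's reads, in one library, that ended in the upstream exon. The deposited table gives 1 upstream count a gene and no position, so an upstream end cannot be tied to a particular exon or to a known isoform. It also does not name the exon that was taken as the 3′-most of a gene. A high upstream share therefore does not show that the protein was shortened.

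In wild type 1, 2 and 3 the table summed to 7075383, 13145966 and 8941471 reads. Of the marker genes of brain cells, 7 of 9 for neurons, 4 of 8 for oligodendrocytes and 3 of 7 for astrocytes are in the table. Their summed levels ran over the libraries from 6031 to 9654, from 5296 to 5771 and from 1028 to 2090 CPM (reads of both ends per 1000000 reads of the table). For microglia, endothelium and choroid plexus 1 marker each is listed, P2ry12 (16 to 29 CPM), Flt1 (28 to 125 CPM) and Ttr (1626 to 1919 CPM), and 0 of 3 blood markers are. Cytosolic ribosomal protein genes took 61756 CPM in wild type 1, 34903 in wild type 2 and 30679 in wild type 3, and oxidative phosphorylation genes took 39086, 27756 and 24970. Fewer cells of a type and less RNA per cell cannot be told apart in these bulk samples.

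Reads ended in the 3′-most exon for most genes, with a long tail of genes that ended upstream. Upstream exons held 12.4%, 11.6% and 11.1% of all reads of the table in wild type 1, 2 and 3. For single genes the median upstream share was 6.30%, 5.76% and 5.53% in the same order, a mean of 5.86 ± 0.396% (SD, n = 3). Averaged over libraries first, the shares had a median of 6.08% with quartiles of 1.51% and 22.8%. The distribution was uneven: 1117 genes (18.7%) had a mean share of at most 1%, 1635 (27.4%) lay above 1% and up to 5%, 774 (13.0%) up to 10%, 1044 (17.5%) up to 25% and 681 (11.4%) up to 50%. Above the midpoint, 358 genes lay up to 75%, 181 up to 90% and 182 beyond.

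**Figure D1:**
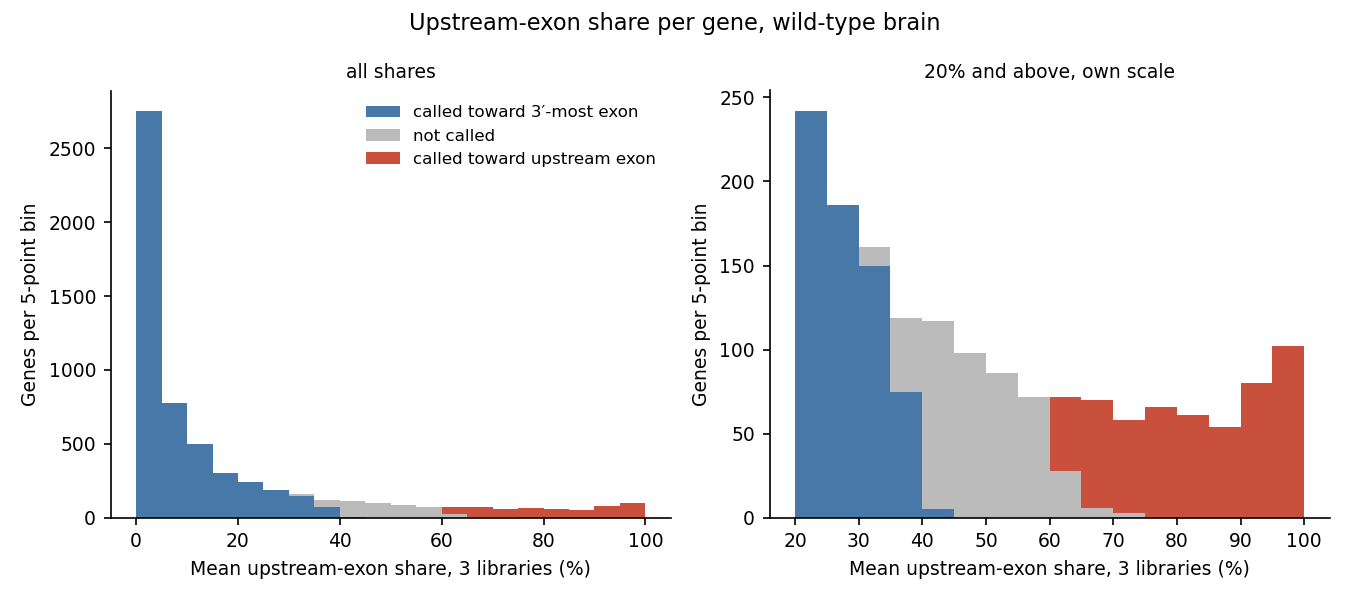
Number of genes (y axis) per 5-point bin of the mean upstream-exon share over the 3 wild-type libraries (x axis, percent), coloured by the result of edgeR's test; the right panel repeats the bins from 20% on its own scale. The first bin is the tallest, and the bins above 90% hold more genes than those just below it.

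For each gene the reads of both ends were compared within libraries with edgeR's quasi-likelihood test, adjusted over all 5972 genes by the Benjamini-Hochberg method at a threshold of 0.05. It placed 526 genes (8.81%) toward the upstream exon and 4986 (83.5%) toward the 3′-most exon, and 460 genes passed in neither direction. The test asks only whether the 2 ends hold unequal reads, so with shares this far from even nearly all genes pass. Adjusted p-values from fits to 2 libraries, given below for some genes, are not comparable in size with those from 3. A mean share above 50% was measured in 721 genes (12.1%), of which 526 passed. In 574 genes the share was above 50% in all 3 libraries, in 5090 it was at or below 50% in all 3, and in 308 the libraries lay on both sides. The lowest mean share that passed toward the upstream exon was 60.04%, and the highest that passed toward the 3′-most exon was 41.2%. At the reads threshold, the 3 genes with exactly 20 reads had mean shares from 11.4% to 24.4%, and the 6 genes just outside it, at 19.7 reads, from 8.04% to 59.9%.

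The genes with the highest shares had nearly all of their reads in the upstream exon. Among genes with 100 or more reads, the highest share belonged to Otoa, which encodes otoancorin of the inner ear, with 82298, 131370 and 81902 upstream reads in wild type 1, 2 and 3 against 5, 11 and 11 in the 3′-most exon. Both ends together put Otoa at 10262 CPM. Ndufb8, a subunit of respiratory complex I, had 37162, 48867 and 23938 upstream reads against 25, 37 and 22. For both genes all 3 libraries had a share above 99.9%. Zbtb20, a zinc finger transcription factor of the hippocampus, had 10065, 13079 and 8486 upstream reads against 9, 17 and 9, and Ppm1b, a metal-dependent protein phosphatase, 9246, 15970 and 8767 against 32, 62 and 36.

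The other 8 genes of these 12 were Gm20390, Gm20388, 1110051M20Rik, Smim4, Gm45929, Dnhd1, Ifitm10 and AU040320, with mean shares from 99.6% to 99.9%. Gm45929 had 0 of 929 reads in the 3′-most exon in wild type 1, which allows a share of up to 0.323%. The log2 ratio of upstream to 3′-most reads over the 12 genes ran from 8.01 for AU040320 (SE 0.397, edgeR adjusted p = 1.36e-11) to 13.4 for Otoa (SE 0.339, edgeR adjusted p = 1.31e-13). In the RefSeq gene table of build GRCm38.p6, which is not the build of the files and was used for names and neighbours only, 6 of the 12 overlap another protein-coding gene: Zbtb20 (Tigit), 1110051M20Rik (Arfgap2), Smim4 (Pbrm1), Gm45929 (Borcs8 and Mef2b), Dnhd1 (Timm10b) and AU040320 (Ncdn and Zmym4). A further 2, Gm20390 and Gm20388, have no match there. The 4 that remain overlap no other protein-coding gene in that build. Among them Otoa lies between Igsf6 and Hs3st2, Ndufb8 between Sec31b and Hif1an, and Ifitm10 between Krtap5-4 and Ctsd. Overlap was judged from the spans of protein-coding genes alone. A lack of it does not show that the reads of these 4 genes, Otoa included, are their own.

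Overlap with a neighbour was more frequent at the top of the share scale. Of the genes with a RefSeq match, 70 (41.4%) of those with a mean share above 90% overlapped another protein-coding gene, 199 of 694 (28.7%) with a share above 50%, and 1096 of 5140 (21.3%) with a share of 50% or less. The deposited counts do not say which gene model owned a read and no source used here states how strand was treated. From these counts, upstream reads of an overlapping gene thus cannot be separated from those of its neighbour. Overlap was counted without regard to strand, so neighbours on the same and on the opposite strand are not told apart. Without overlapping and unmatched genes, edgeR placed 353 of 4539 genes toward the upstream exon, and 495 had a mean share above 50%.

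A few abundant genes supplied much of the upstream signal. The 10 genes with the most upstream reads held 35.8%, 35.3% and 31.0% of all upstream reads in wild type 1, 2 and 3, and without them upstream exons held 8.37%, 7.90% and 8.02% of the reads. The genes with a mean share above 50% held 71.3%, 71.5% and 68.7% of the upstream reads. After Otoa, the most abundant of these was Npcd, with upstream shares of 61.1%, 45.6% and 47.1% at 8854 CPM. Its libraries lie on both sides of 50%, and it did not pass (log2 ratio 0.08, SE 0.211, edgeR adjusted p = 0.734). In RefSeq its span covers Nptxr, the neuronal pentraxin receptor, and Cbx6, a Polycomb chromobox gene, so its reads are uncertain.

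Well-known brain genes are among the abundant ones with most of their reads counted in the upstream exon. S100b, the calcium-binding protein of astrocytes, had shares of 94.1%, 92.8% and 85.4% (log2 ratio 3.42, SE 0.277, edgeR adjusted p = 4.43e-09). Hdac8, an X-linked histone deacetylase, had 20868, 30677 and 19008 upstream reads against 1090, 1999 and 1263 (log2 ratio 4.04, SE 0.222, edgeR adjusted p = 3.98e-11). Hsp90ab1, the constitutive cytosolic HSP90 chaperone, was mixed, at 66.9%, 69.5% and 60.1% (log2 ratio 0.93, SE 0.197, edgeR adjusted p = 0.000308). Gm20388 and Gm20425, predicted genes without a RefSeq match, stood at 99.9% and 99.6%. At the other end of the scale, Rplp1, of the ribosomal stalk, had 17, 30 and 12 upstream reads against 87647, 88310 and 47350, and Ppp3r1, the regulatory subunit of calcineurin, 18, 34 and 27 against 47242, 75550 and 63087.

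Genes for which an upstream or intronic poly(A) site is described in the literature were looked up by name. Of 25 such genes 20 were measured, with a median mean share of 52.5% (quartiles 31.4% and 65.0%) beside 6.08% over all genes. Of the 20, 7 passed toward the upstream exon (background 8.81% of all genes), 6 toward the 3′-most exon (background 83.5%) and 7 in neither direction. The list holds genes chosen because such ends are known, so the count describes how far the table covers known cases and shows nothing new about them. Any single-library share in this list had a 95% Wilson interval at most 20.6 points wide, the widest being that of Egfr, the epidermal growth factor receptor; such intervals cover counting error only, and no source used here names molecule tags.

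**Figure D2:**
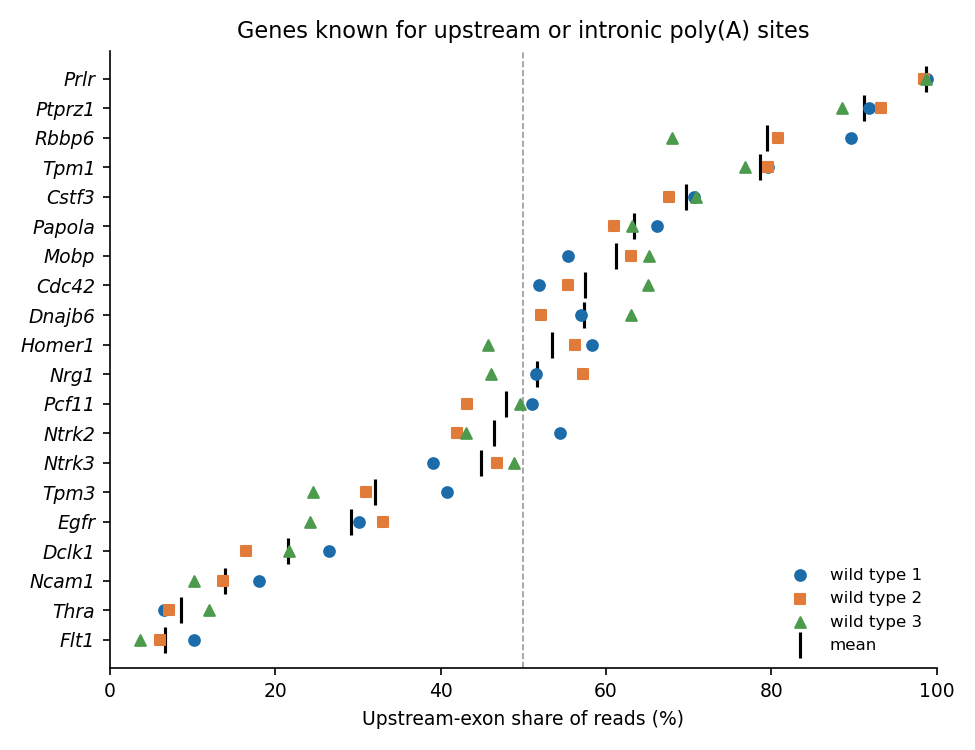
Upstream-exon share (x axis, percent) of the 20 measured genes known for upstream or intronic poly(A) sites (y axis), with a symbol for each wild-type library and a vertical bar at the mean; the dashed line is at 50%. Genes run from Prlr, above 98% in all libraries, to Flt1, at 10.2% or less.

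Of the 4 cleavage and polyadenylation factors in this list, 3 passed toward the upstream exon. For Cstf3, the CSTF subunit that holds the complex together, upstream shares were 70.6%, 67.6% and 70.9% (69.7 ± 1.80%, SD, n = 3; log2 ratio 1.20, SE 0.266, edgeR adjusted p = 0.000471). Papola, the poly(A) polymerase, stood at 66.2%, 61.0% and 63.1% (edgeR adjusted p = 0.00559). Rbbp6, a ubiquitin ligase of the cleavage complex whose short form lacks most domains, stood at 89.6%, 80.8% and 67.9% (edgeR adjusted p = 2.47e-05). Cstf3 and Papola varied by less than 6 points between libraries, and Rbbp6 by more than 20, with wild type 3 the lowest. Pcf11, the termination factor, was even between both ends, at 51.0%, 43.2% and 49.6% (log2 ratio -0.12, SE 0.284, edgeR adjusted p = 0.680).

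Over the whole cleavage and polyadenylation machinery, 17 of 29 genes were measured, with a median share of 23.7% and quartiles of 6.90% and 47.1%. Of these 17, 3 passed toward the upstream exon, all of them named above (17.6%, background 8.81%), and 11 toward the 3′-most exon (64.7%, background 83.5%); 6 of the 17 overlap another protein-coding gene. The other genes that passed in neither direction were Sympk, the symplekin scaffold, with 45.3%, 48.5% and 47.5%, and Scaf4, which keeps early poly(A) sites in check, with 37.3%, 31.0% and 53.1%. Scaf4 passed toward the 3′-most exon without wild type 3 (edgeR adjusted p = 0.0133).

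Receptors and membrane proteins with truncated or soluble forms had shares from one end of the scale to the other. For Ntrk2, the BDNF receptor TrkB with a kinase-less form abundant in astrocytes, upstream reads made up 54.4%, 42.0% and 43.1% (46.5 ± 6.90%, SD, n = 3) of 1537, 2934 and 2429 upstream and 1286, 4050 and 3212 3′-most reads. For the NT-3 receptor gene Ntrk3 the shares were 39.1%, 46.8% and 48.9%. Neither passed (edgeR adjusted p = 0.394 and 0.265), and the libraries of Ntrk2 lie on both sides of 50%. Flt1, the VEGF receptor with a soluble form, ended mostly in the 3′-most exon (10.2%, 6.09% and 3.67% upstream), as did Egfr (30.1%, 33.1% and 24.2%). Prlr, the prolactin receptor with short forms, ended upstream in 98.8%, 98.5% and 98.7% of its reads, at 20.5 CPM. Ptprz1, a receptor phosphatase of glia with a secreted form, stood at 91.7%, 93.3% and 88.5%, while the adhesion molecule Ncam1, which has a lipid-anchored short form, stood at 18.1%, 13.7% and 10.1%.

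In the list of receptor kinases and their ligands, which holds Ntrk2, Ntrk3, Flt1 and Egfr, 1 of 23 measured genes passed toward the upstream exon (4.35%, background 8.81%) and 16 toward the 3′-most exon (69.6%, background 83.5%). The gene that passed was Ret, the GDNF family receptor kinase, with 94.9%, 95.2% and 92.4% upstream (log2 ratio 4.03, SE 0.320, edgeR adjusted p = 3.44e-09). Epha7, an ephrin receptor with a truncated form, stood at 57.3%, 50.4% and 53.7%, and Nrg1, the neuregulin ligand, at 51.6%, 57.3% and 46.1%. Neither passed (edgeR adjusted p = 0.468 and 0.770), and the list's median share was 11.6%. Nrg1 overlaps Gm3985 in RefSeq.

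Genes of the glutamatergic postsynapse passed toward the 3′-most exon about as often as all genes, and 4 had a mean share above 50%. Of 38 measured genes of the glutamatergic postsynapse, 1 passed toward the upstream exon (2.63%, background 8.81%) and 32 toward the 3′-most exon (84.2%, background 83.5%), and the median share was 3.37%. The gene that passed was Grm4, a metabotropic glutamate receptor that is mostly presynaptic and strong in cerebellar granule cells, with 1524, 4781 and 2752 upstream reads against 10, 48 and 28 (log2 ratio 6.78, SE 0.314, edgeR adjusted p = 6.69e-12). Homer1, whose short activity-induced form lacks the coiled coil that joins Homer proteins, was mixed, at 58.3%, 56.3% and 45.7% (53.4 ± 6.77%, SD, n = 3; edgeR adjusted p = 0.465). Gria4, an AMPA receptor subunit, had 58.3%, 54.9% and 59.8%, above 50% in every library without passing (edgeR adjusted p = 0.0760), and Grm7, another metabotropic receptor, 64.6%, 54.5% and 47.6%.

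Of the 14 measured genes of the GABAergic synapse, 0 passed toward the upstream exon (background 8.81%) and 14 toward the 3′-most exon (background 83.5%). The highest shares belonged to Gphn, the gephyrin scaffold of inhibitory synapses, with 37.3%, 18.9% and 21.3%, and to the GABA-A receptor subunit Gabra2, with 27.1%, 27.4% and 21.9%. Of 32 presynaptic genes 2 passed toward the upstream exon (6.25%, background 8.81%) and 30 toward the 3′-most exon (93.8%, background 83.5%). The former were Syn2, a synapsin of synaptic vesicles, at 88.8%, 86.2% and 86.7% (log2 ratio 2.78, SE 0.225, edgeR adjusted p = 4.49e-09), and Pclo, the active zone protein Piccolo, at 76.9%, 84.7% and 80.7% (log2 ratio 2.09, SE 0.269, edgeR adjusted p = 1.52e-06). Syn2 overlaps Timp4 in RefSeq. Snap25, the SNARE of the plasma membrane, stood at 19.7%, 26.5% and 14.6%, and the median of the presynaptic list was 1.26%. That list had a median of 2495 reads, beside 461.5 over all genes.

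Among 33 voltage-gated channel genes, Kcnq3, a subunit of the M-current potassium channel, was the only gene that passed toward the upstream exon, at 82.4%, 80.0% and 69.1% (log2 ratio 1.79, SE 0.282, edgeR adjusted p = 1.57e-05), and 31 passed toward the 3′-most exon. These are 3.03% and 93.9% of the list, beside 8.81% and 83.5% of all genes. Cacnb4, a calcium channel beta subunit, was even at 44.9%, 51.0% and 50.8% and did not pass (edgeR adjusted p = 0.841). Of 36 axon guidance and adhesion genes 3 passed toward the upstream exon (8.33%, background 8.81%) and 31 toward the 3′-most exon (86.1%, background 83.5%), shares near the background, with a median of 7.80%. These were Ptprz1 and the classical cadherins Cdh8, at 78.0%, 80.4% and 83.1%, and Cdh11, at 77.8%, 73.0% and 76.8%. Unc5a, a netrin receptor with only 67.7 reads on average, had shares of 76.0%, 57.1% and 33.6% and did not pass (edgeR adjusted p = 0.802). Unc5a overlaps Hk3 in RefSeq.

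**Figure D3:**
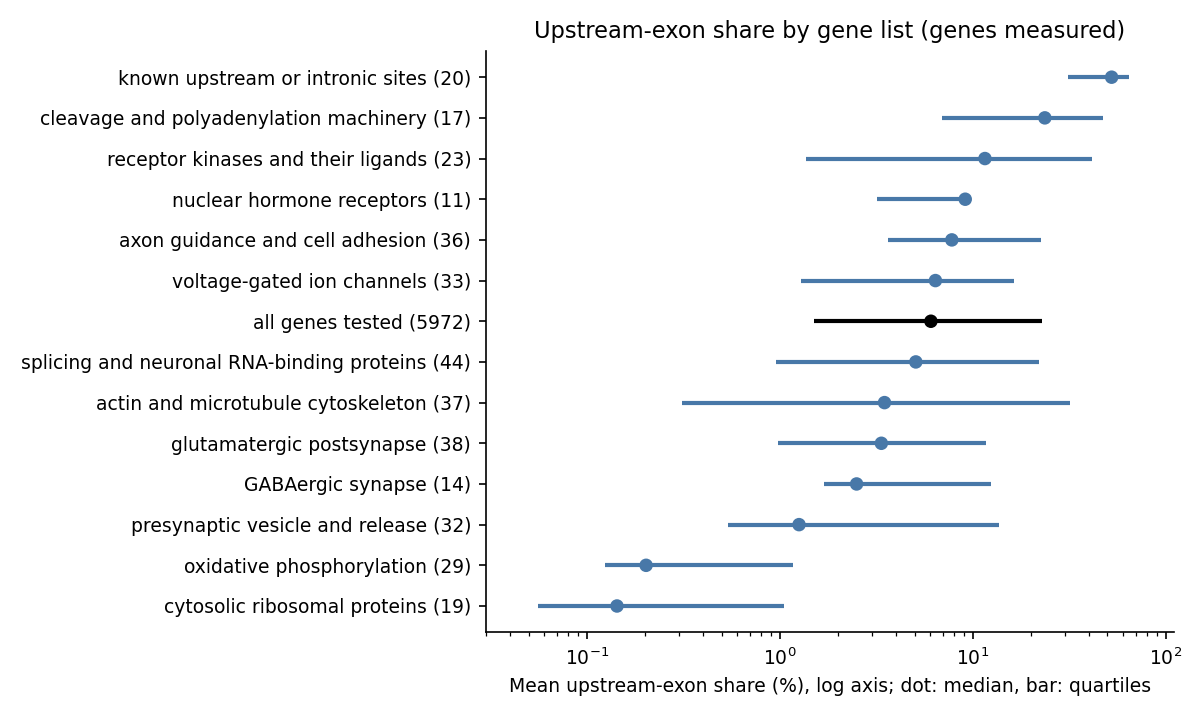
Median (dot) and quartiles (bar) of the mean upstream-exon share on a log axis (x, percent) for each gene list (y, number of measured genes in brackets), with all genes in black. Known upstream sites lie highest, at a median of 52.5%, and ribosomal protein genes lowest, at 0.144%.

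Splicing regulators and other RNA-binding proteins spread over the whole scale. Of 44 measured genes, 7 passed toward the upstream exon (15.9%, background 8.81%) and 35 toward the 3′-most exon (79.5%, background 83.5%), and the list's median share of 5.08% lay close to that of all genes. Hnrnpa2b1, an hnRNP protein that binds pre-mRNA, had the highest share, at 92.9%, 93.8% and 90.1% (log2 ratio 3.60, SE 0.260, edgeR adjusted p = 1.10e-09). Khdrbs1, which encodes the splicing regulator SAM68, stood at 91.2%, 90.2% and 89.9%, and Rbm39, a splicing cofactor, at 90.3%, 90.5% and 77.2%. Qk, the quaking protein of myelinating glia with isoforms that differ in their C-termini, varied least of the 7, at 78.8%, 78.9% and 79.3% (log2 ratio 1.91, SE 0.223, edgeR adjusted p = 4.44e-07). The others that passed upstream, named after their values were seen, were Khdrbs2 (77.6 ± 7.31%, from 48 reads on average), Luc7l2 (66.4 ± 2.81%) and Rbfox1 (66.0 ± 12.9%; SD, n = 3 each). Khdrbs2 overlaps Gm9839 and Gm5415 in RefSeq. Rbfox1, a neuronal splicing factor, did not pass without wild type 1 (edgeR adjusted p = 0.106), the library in which its share was 80.1% against 63.1% and 54.8%.

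Hnrnpu, which encodes a nuclear scaffold protein, was the most abundant list member near the middle, at 40.2%, 51.3% and 67.0%. Its libraries span both sides of 50%, with wild type 3 the highest, and it passed only without wild type 1 (toward the upstream exon, edgeR adjusted p = 0.0411, against 0.545 with all 3). Luc7l3, a splicing factor of the U1 particle, stood at 50.8%, 55.0% and 60.5% (edgeR adjusted p = 0.173). Hnrnpu overlaps Cox20 in RefSeq.

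Of 37 measured cytoskeletal genes, 6 passed toward the upstream exon (16.2%, background 8.81%) and 28 toward the 3′-most exon (75.7%, background 83.5%), with a median share of 3.49%. Tpm1, a tropomyosin with alternative last exons, stood at 79.6%, 79.6% and 76.8% (log2 ratio 1.88, SE 0.225, edgeR adjusted p = 6.30e-07), Tpm2, which overlaps Car9, at 73.6%, 76.6% and 60.4%, and Tpm3 below the middle at 40.7%, 31.0% and 24.5% (log2 ratio -1.11, SE 0.257, edgeR adjusted p = 0.000710). Dnm2, the ubiquitous dynamin, had 91.8%, 92.6% and 95.4% and overlaps Tmed1. Ank1, an ankyrin, had 65.9 ± 5.84%, and the microtubule protein Map1b 63.0 ± 4.78% (SD, n = 3 each), both named after their values were seen; Map1b did not pass without wild type 2 (edgeR adjusted p = 0.0509). Dst, the giant linker dystonin, passed with 79.2%, 83.0% and 44.0% but not without wild type 1 or wild type 2 (edgeR adjusted p = 0.0736 and 0.157). It also did not pass without the library as a block (edgeR adjusted p = 0.108), and it overlaps Bend6.

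Cdc42, a small GTPase with a brain form that ends differently at its C-terminus, had 51.9%, 55.5% and 65.1% (57.5 ± 6.84%, SD, n = 3) and did not pass (edgeR adjusted p = 0.0883). Mobp, a myelin protein of oligodendrocytes, stood at 55.4%, 63.1% and 65.2% (log2 ratio 0.66, SE 0.235, edgeR adjusted p = 0.0138); without wild type 2 or wild type 3 it did not pass (edgeR adjusted p = 0.113 and 0.0578). Dnajb6, a co-chaperone with a long nuclear and a short cytosolic form, stood at 56.9%, 52.2% and 63.0% (edgeR adjusted p = 0.0700). All 3 genes were above 50% in every library. Dclk1, a microtubule-associated kinase, ended mostly in the 3′-most exon, at 26.5%, 16.5% and 21.7% upstream. The thyroid hormone receptor gene Thra, whose forms differ in the ability to bind hormone, had 1505, 3471 and 3175 upstream reads against 21486, 44818 and 23332, and it overlaps Nr1d1. All 11 measured nuclear hormone receptors passed toward the 3′-most exon (background 83.5%), with Rarg, a retinoic acid receptor, the highest at 25.5 ± 4.89% (SD, n = 3).

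Ribosomal protein and respiratory chain genes had the lowest medians of the 13 lists. They also had many reads, with medians of 12279 and 4746 beside 461.5 over all genes. Of all 384 genes with 5000 or more reads, 353 passed toward the 3′-most exon, and the median share was 0.312%. The part of level in the values of these lists was not tested. All 19 measured cytosolic ribosomal protein genes passed toward the 3′-most exon (background 83.5%), at a median share of 0.144%, and 28 of 29 oxidative phosphorylation genes (96.6%) did so, at a median of 0.203%. The exception in the latter is Ndufb8. Among ribosomal genes Rps12 stood out, with 12655, 12571 and 7608 upstream reads against 32992, 34467 and 20029, a share of 27.3 ± 0.529% (SD, n = 3) that varied by less than 2 points over libraries. Rps6 followed at 12.3 ± 2.38%. Ndufs1, of complex I, had 23.7%, 25.1% and 19.1%. Genes with processed pseudogenes, such as those for ribosomal proteins, are uncertain where reads could be split between copies.

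The share was lower the more reads a gene had. Genes with 20 to 50 reads on average had a median share of 28.9% (quartiles 15.8% and 49.1%, 374 genes), those with 200 to 500 reads 6.98% (1441 genes), and those with 5000 or more 0.312% (quartiles 0.0863% and 2.39%, 384 genes). This order held in every library: the median went from 29.3% to 0.370% in wild type 1, from 30.2% to 0.327% in wild type 2 and from 26.2% to 0.309% in wild type 3. Spearman's correlation of share and level across genes was -0.462, -0.498 and -0.484 in the libraries and -0.507 for the means; it is a description across 5972 genes, which are not replicates and share a library, and share and level have the same reads in them. With the level taken from a library that did not enter the share, it was -0.489, -0.50 and -0.484. That choice removes only counting error common to both values. Share and level are still built from the same 2 ends of a gene, so they stay linked by definition.

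The median number of upstream reads grew less with level than that of 3′-most reads. From the lowest to the highest of these levels the median upstream count went from 8.67 to 35.3 reads, whereas the median 3′-most count went from 21.7 to 8246. Across all genes the correlation of both counts was 0.0453. The table lists no gene with fewer than 16 reads, over all 8 libraries, at either end, which is 2 reads a library. Those 2 reads are 10% of a gene with 20 reads and 0.04% of one with 5000, so a low share could enter the table only at a high level. Among the 1838 genes with 1000 or more reads the correlation was -0.290, against -0.507 over all; the part of the listing rule in the remaining relation was not tested.

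**Figure D4:**
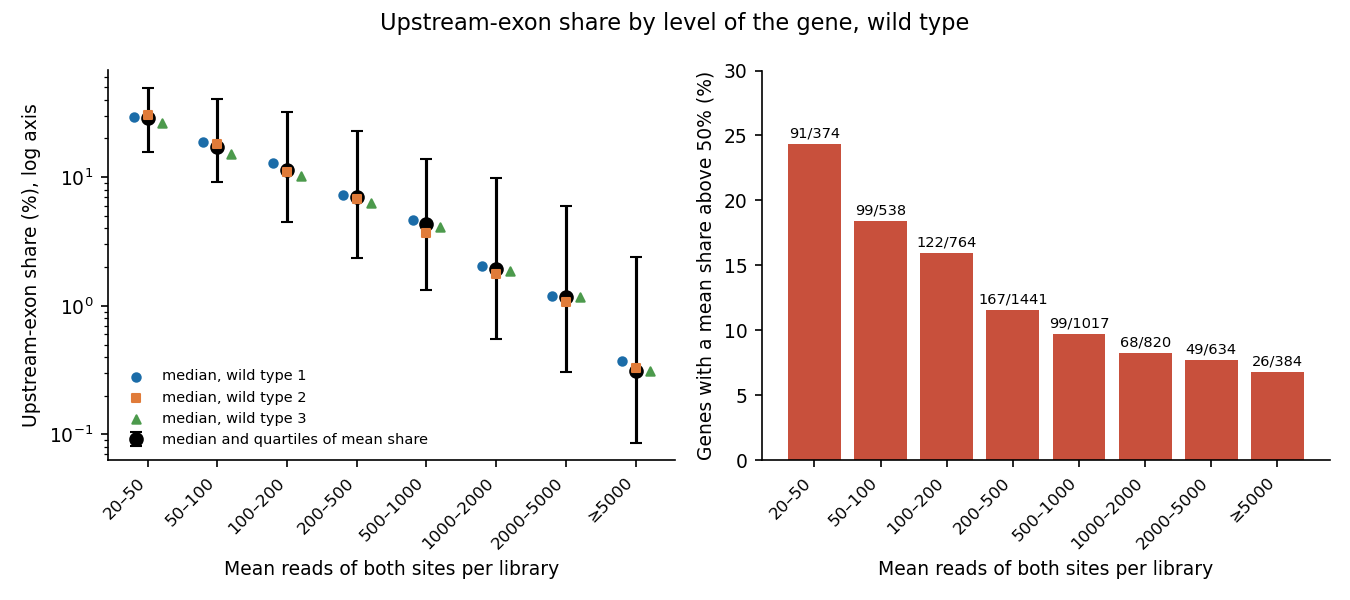
Left: median and quartiles of the mean upstream-exon share (y, percent, log axis) in bins of mean reads of both ends per library (x), with the median of each wild-type library beside it. Right: percentage of genes in each bin with a mean share above 50%, with counts above the bars. Both fall from the lowest to the highest level, the latter from 24.3% to 6.77%.

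Genes that end mainly upstream were found at every level. Their part fell from 91 of 374 genes (24.3%) with 20 to 50 reads to 26 of 384 (6.77%) with 5000 or more. The test passed 68.2% of genes in the lowest bin and 97.7% in the highest, in either direction, where the background over all genes is 92.3%. In the lowest bin the SD between libraries had a median of 8.95 points, and counting alone would give 7.37, so single shares there are imprecise.

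Shares were similar between animals for most genes. Spearman's correlation of shares across the 5972 genes was 0.947 between wild type 1 and 2, 0.931 between 1 and 3, and 0.942 between 2 and 3, a description of genes that share these libraries. The SD between libraries had a median of 1.61 points. Without wild type 1, 2 and 3 in turn it was 1.11, 1.25 and 1.06 points. These are SDs over 2 libraries, which are not comparable with an SD over 3. The SD over 3 libraries, divided by the binomial SD of counting at the same depth, had a median of 1.40 over genes. In 27.2% of genes it was more than 2 times the binomial SD. Under counting alone an SD over 3 libraries tends to fall below the binomial SD. Of 373 genes with a mean share from 40% to 60%, 368 passed in neither direction and 5 toward the 3′-most exon, and their SD had a median of 6.90 points. Msl1, of a histone acetyltransferase complex, was one of the abundant ones with little spread, at 49.2%, 46.0% and 46.7%, while Pakap, an anchoring protein of protein kinase A, had 50.5%, 48.2% and 38.8%.

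In genes with mixed ends, wild type 3 most often had the lowest share and wild type 1 the highest. Over all 5972 genes this was less marked. Wild type 3 was the lowest in 42.2% and the highest in 29.1%, and wild type 1 was the highest in 41.7%. In the bins from 500 to 5000 reads the median share was lowest in wild type 2. Among the 1561 genes with 100 or more reads and a mean share from 10% to 90%, wild type 3 was the lowest in 827 (53.0%), wild type 2 in 417 (26.7%) and wild type 1 in 317 (20.3%), and wild type 1 was the highest in 740 (47.4%). In these genes the share was a median of 3.84 points higher in wild type 1 than in wild type 3, and 2.16 points higher in wild type 2 than in wild type 3. Of 189 genes with 100 or more reads and an SD above 10 points, wild type 3 was the lowest in 159 and the highest in 18. Both sets were picked by their shares, so the levels that follow are a description with the direction built in. In the 159 genes the CPM of the 3′-most exon was higher in wild type 3 than the mean of the other two by a median of 1.23 on the log2 scale, and that of the upstream exon differed by a median of -0.24. In the 18 genes the medians were -0.29 for the 3′-most and 1.06 for the upstream exon. The wild-type libraries also differ in the summed levels given above. Ribosomal protein genes were lowest in wild type 3, and neuronal and astrocyte markers and Flt1, the 1 endothelial marker listed, were highest there. In the table of sites within the 3′-most exon, neuronal markers summed to 6813, 11349 and 10748 CPM in wild type 1, 2 and 3, highest in wild type 2. Astrocyte markers were nearly equal there, at 3722, 3664 and 3749 CPM, and the 2 endothelial markers summed to 24, 52 and 95 CPM. The 1 blood marker listed there stood at 4285, 1866 and 3410 CPM in the same order. The 7 markers of cerebellar granule and Purkinje cells summed to 2084, 1697 and 1759 CPM. The part of these levels in the shares was not tested.

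**Figure D5:**
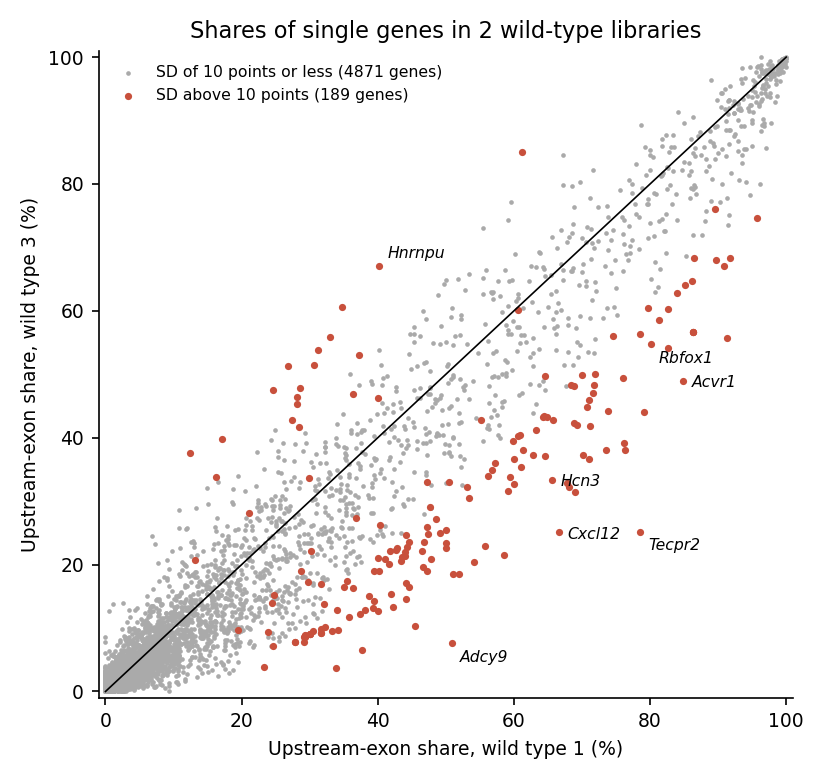
Upstream-exon share in wild type 3 (y axis, percent) against wild type 1 (x axis, percent) for genes with 100 or more reads; red points have an SD above 10 points over the 3 libraries, and the line marks equal shares. Most red points lie below the line, and Hnrnpu is an exception above it.

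The median SD was larger the fewer reads a gene had, so the genes with the widest spread were picked among those with 100 or more reads. Tecpr2, an autophagy protein, had shares of 78.6%, 71.4% and 25.2%, from 143, 225 and 124 upstream against 39, 90 and 368 3′-most reads. Adcy9, an adenylyl cyclase, had 50.9%, 26.7% and 7.64%, with 198, 748 and 1813 reads in the 3′-most exon. Acvr1, an activin and BMP receptor, had 84.8%, 90.1% and 48.9%, and Cxcl12, a chemokine of endothelial and stromal cells, 66.7%, 53.9% and 25.1%. Usp8, a deubiquitinase of endosomes, had 42, 102 and 64 upstream reads against 28, 28 and 132, and Rbm4b, an RNA-binding protein, 76.2%, 77.1% and 39.1%. In all 6 wild type 3 was the lowest, and in Hcn3, a pacemaker channel with 65.6%, 20.5% and 33.3%, wild type 1 stood apart from the other two. Acvr1 overlaps Upp2, Rbm4b Gm21992 and Hcn3 Pklr.

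Single libraries decided the calls of several of these genes. The adjusted p-values from 2 libraries are not comparable in size with those from 3. For Otoa, edgeR's adjusted p was 1.31e-13 with all 3 libraries. It ran from 9.80e-167 to 1.12e-09 when a library was left out in turn. Tecpr2 and Usp8 did not pass with all libraries and passed toward the upstream exon without wild type 3 (edgeR adjusted p = 0.000316 and 0.00795). Hcn3 passed toward the 3′-most exon without wild type 1 (edgeR adjusted p = 0.000214). Adcy9 passed toward the 3′-most exon with all 3 (log2 ratio -1.65, SE 0.5003, edgeR adjusted p = 0.00534) and not without wild type 3 (0.0567). Rbm4b, at an edgeR adjusted p of 0.0448, did not pass without wild type 1 or 2 (0.234 and 0.305), nor with DESeq2 (0.0546) or limma (0.113). Acvr1 passed (log2 ratio 1.76, SE 0.494, edgeR adjusted p = 0.00317), with log2 ratios from 1.07 to 2.85 when a library was left out in turn, and it did not pass without the library as a block (0.0984).

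The ends within the 3′-most exon were a separate readout. The other deposited table gives a proximal and a distal site in that exon, and 4000 of the 5972 genes had a pair with 20 or more reads there. The proximal share had a Spearman correlation of -0.00123 with the upstream share across these genes, a description over tables that share reads. Of the genes with a mean upstream share of at most 1%, 77.8% had such a pair, against 73.0% of those above 1% and up to 10%, 63.9% of those above 10% and up to 50%, and 37.6% (271 of 721) of those above 50%. A fall was built in, because the 20 reads must lie in the 3′-most exon, where genes with high upstream shares have few. Levels also differed, with a median of 199.8 CPM at shares of at most 1% and 26.9 CPM above 50%. The median proximal share was 46.7%, 47.1%, 44.3% and 47.2% in these groups.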

How the data were processed

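Total brain was collected and 3′ end libraries were prepared with a QuantSeq REV kit, per the labels' protocols. The submitters' processing notes list STAR 2.5, HTSeq 0.6.0, FastQC 0.11.3 and build mm9, with no roles. The authors deposited whole-number counts per gene and end, used here as deposited; no source used here states how sites were picked or internal priming was treated. Columns were matched by the library code in the titles, with 0 unused.

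Genes with a mean of 20 or more reads were tested with edgeR 4.0.16 (R 4.3.3) for a difference between ends, with library as a block and its table total as library size. Standard errors are the log2 ratio over the square root of F. Alternatives were limma 3.58.1 (pseudocounts 0.5 and 5), DESeq2 1.42.0, other offsets and filters, and leaving out libraries. The test was tried on simulated counts with equal ends except in genes given a known shift. It recovered 56% of 100 genes shifted by 1 on the log2 scale and 99% of 100 shifted by 2. Of its calls 5.49% were false. The simulation set the same dispersion for all genes, which real counts need not share. In all, 25 genes repeat another gene's counts (18 protocadherin gamma genes) and are uncertain; RefSeq symbols matched 97.7% of genes.

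Named genes were, without repeated ones, the 12 of highest share and the 8 of widest SD (both at 100 or more reads); those with the most reads above 50% (8), in the table (6) and from 40% to 60% (6); up to 4 per list by share; and all measured known-site genes. A further 7 were added after values were seen. A gene that the rule names is not reported here. The members, the 13 lists and the tests were chosen with earlier results of these data known. Sequences at the ends were not analysed here.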

Additional observations from a re-analysis of the deposited data

How the results depend on the processing

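Calls toward the upstream exon ranged from 353 (without overlapping or unmatched genes, a choice made after seeing the data) to 552 over the alternatives, beside 526, and calls toward the 3′-most exon from 3841 to 5020, beside 4986; none moved by over 1.5 times. Genes with a mean share above 50% numbered 495 to 782, beside 721. Leaving out a library in turn gave 468 to 552 and 4887 to 4948 calls. The 2 ends of a gene come from 1 library, so the library is the natural block; with no replicate block edgeR made 513 and 4974 calls. No paired analysis across genotypes was possible because only wild type was used. TMM or DESeq2 size factors as offsets left 526 and 4986 calls, since depth cancels. The median share of 6.08% became 4.22% at 100 or more reads, 6.67% with 1 or more read in each library and 5.58% without overlapping or unmatched genes; leaving out a library gave 5.96% to 6.10%. The correlation of share and level was -0.434, -0.527 and -0.530 under these 3 settings, -0.684 with the 3′-most count as level, -0.484 with the level from wild type 3 alone, and -0.290 at 1000 or more reads (added after seeing the data); leaving out a library gave -0.513 to -0.488. The median SD was 1.06 to 1.25 points without a library in turn, lowest without wild type 3. These are SDs over 2 libraries, which are not comparable with the 1.61 points over 3.

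Of 96 named genes, 76 kept call and direction in every alternative that gave a value. With no replicate block, the log2 ratio of upstream to 3′-most reads changed sign for Npcd (-0.018), Tecpr2 (-0.065) and Unc5a (-0.28), none of which passed. Leaving out libraries, it crossed 0 for Cacnb4 (-0.12 to 0.052), Cxcl12 (-0.68 to 0.58), Hnrnpu (-0.25 to 0.55), Npcd (-0.21 to 0.24), Nrg1 (-0.070 to 0.27), Pcf11 (-0.21 to 0.016), Tecpr2 (-0.15 to 1.57), Unc5a (-0.34 to 0.86) and Usp8 (-0.31 to 1.27). The cause was not tested. Depth limits shares of genes under 50 reads most.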

Other observations

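Families whose gene symbols share a beginning were counted after the values had been seen, and no test was made of them. Symbols that begin with Hnrnp, mostly hnRNP proteins, had a median upstream share of 10.01% over 15 genes, and 4 lay above 50%: Hnrnpa2b1, Hnrnpll, Hnrnph3 and Hnrnpu. Those that begin with Cdh, the cadherins, had a median of 12.7% over 14 genes, with Cdh7, Cdh8 and Cdh11 above 50%. Zinc finger genes named Zfp had a median of 12.4% over 137 genes, at a median of 212 reads, and 23 were above 50%, of which 12 (8.76% of the family, background 8.81%) passed edgeR's test toward the upstream exon. Kinesins named Kif had a median of 15.1% over 19 genes, with Kif9, Kif21a, Kif26b and Kif13b above 50%.

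Families with lower medians were the following. Rab GTPases and related genes had a median of 1.90% over 40 genes, at a median of 1128 reads. Of the 40, 39 passed toward the 3′-most exon (background 83.5%), the exception being Rab3il1. Among all genes with 1000 to 2000 reads, 742 of 820 passed in that direction. Proteasome genes that begin with Psm had a median of 2.26% over 22 genes and mitochondrial ribosomal protein genes that begin with Mrp 2.21% over 28. Solute carriers that begin with Slc lay near all genes, with a median of 5.30% over 103 genes, 12 above 50% and 10.7% passing toward the upstream exon (background 8.81%). For comparison, all genes had a median of 6.08%, and 12.1% of them were above 50%.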
